A study of Mus musculus with 4 samples.

Results

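Lcat, Pla2g4e, Ush1c, Abcb9 and Phf24 are 5 protein-coding genes of modest expression in the adult mouse heart, taken from a table of 55401 genes. They were chosen by their deposited expression values, as genes higher in both Ctcf heterozygous hearts than in both wild-type hearts, so their difference between genotypes is described here and was not tested. Transcript levels were measured by polyA RNA-seq in 2 wild-type and 2 Ctcf heterozygous hearts, all from mice 8 weeks of age. The heterozygous mice carried CTCF-R567W, a germline substitution introduced with CRISPR/Cas9, on 1 Ctcf allele in every cell type, and both groups were on the C57BL/6N background. The labels do not give the sex of the mice or say whether a library came from 1 heart or from pooled hearts, so p-values measure only the spread between these samples, which may be technical. In bulk tissue a change in the number of cells that express a gene and a change in the RNA per cell cannot be told apart.

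The 5 genes have no common pathway. Lcat encodes lecithin-cholesterol acyltransferase, a plasma enzyme secreted mainly by the liver that esterifies the free cholesterol of high-density lipoprotein (HDL), with apolipoprotein A-I as its cofactor. Pla2g4e encodes cytosolic phospholipase A2 epsilon, a calcium-dependent N-acyltransferase that makes N-acylphosphatidylethanolamines, the precursors of N-acylethanolamine lipid mediators. Ush1c encodes harmonin, a PDZ-domain scaffold that anchors cadherin 23 and myosin VIIa in the stereocilia of hair cells and is mutated in Usher syndrome. Abcb9 encodes TAPL, an ATP-binding cassette transporter that moves peptides into lysosomes. Phf24 encodes GINIP, a neuronal protein that binds active inhibitory G protein alpha subunits and takes part in GABA-B receptor signalling. CTCF is a zinc finger protein that binds DNA and shapes chromatin loops, through which promoters and enhancers are kept together or apart.

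Each gene lies on a different chromosome of mm10 (positions from GENCODE M21). Lcat occupies chr8:105939551-105943382 on the minus strand and has 1 annotated transcript. Pla2g4e occupies chr2:120166412-120245335 on the minus strand, with 4 transcripts, 1 of them coding. Ush1c occupies chr7:46195350-46238503 on the minus strand, with 9 transcripts, 6 of them coding. Abcb9 occupies chr5:124061530-124095798 on the minus strand, with 6 transcripts, 1 of them coding. Phf24 occupies chr4:42916660-42944752 on the plus strand, with 9 transcripts, 7 of them coding. Lcat shares chromosome 8 with Ctcf itself (chr8:105636568-105682922, plus strand), and 256.6 kb separate the nearer ends of both genes.

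The start regions of 3 of the genes are printed as examples with a neighbouring gene close by (Lcat), with a low GC content (Pla2g4e) and with a high one (Abcb9). They are RefSeq sequences of GRCm38.p6, each read 5′ to 3′ on the strand of its gene and ending 30 bases after the annotated transcription start, and capitals mark the 7 letters AGGNGGC, part of the CTCF core motif, on either strand.
Lcat, chr8:105943373-105943619, minus strand: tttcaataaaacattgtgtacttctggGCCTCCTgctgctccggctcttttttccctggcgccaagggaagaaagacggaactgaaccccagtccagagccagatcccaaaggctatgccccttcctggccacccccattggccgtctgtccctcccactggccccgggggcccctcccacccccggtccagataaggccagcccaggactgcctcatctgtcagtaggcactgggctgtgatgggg
Pla2g4e, chr2:120245306-120245585, minus strand: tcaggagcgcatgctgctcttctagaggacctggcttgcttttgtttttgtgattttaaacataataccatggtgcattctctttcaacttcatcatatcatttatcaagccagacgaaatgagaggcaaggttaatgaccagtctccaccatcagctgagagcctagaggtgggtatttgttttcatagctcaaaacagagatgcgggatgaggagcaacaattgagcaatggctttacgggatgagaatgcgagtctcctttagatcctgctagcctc
Abcb9, chr5:124095769-124096048, minus strand: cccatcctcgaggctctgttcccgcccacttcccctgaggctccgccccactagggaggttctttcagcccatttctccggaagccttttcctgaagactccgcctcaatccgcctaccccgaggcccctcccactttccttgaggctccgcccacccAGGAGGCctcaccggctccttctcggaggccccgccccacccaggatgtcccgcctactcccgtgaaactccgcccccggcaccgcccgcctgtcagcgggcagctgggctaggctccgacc

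The stretch printed for Lcat begins with the last 30 bases of Slc12a4, the gene next to it on the same strand. Its match to AGGNGGC starts 190 bases before the RefSeq start of Lcat, on the opposite strand, and overlaps the end of Slc12a4. In Abcb9 the match starts 92 bases before the start, on the strand of the gene. Over the full windows of 300 bases (250 before and 50 after the start), Ush1c also had 1 match, 37 bases after its start, Pla2g4e had none, and the windows at both Phf24 starts had 1 and 2. AGGNGGC occurs on either strand in 29.4% of the 32851 windows of this length in the RefSeq table, so a match is a common feature and does not mark a binding site. None of the 6 windows of the 5 genes held TATAAA on either strand, which 13.6% of all windows hold. Base composition ranged widely, from 40.7% GC with 4 CpG at the first Phf24 start to 84.7% GC with 56 CpG at the second. The median of all windows was 52.7% GC with 7 CpG. Pla2g4e had 46.0% GC with 7 CpG, Ush1c 60.7% with 9, Lcat 61.3% with 7 and Abcb9 68.7% with 23.

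The values are TPM, transcript abundances corrected for transcript length and set to the same sum in each library, and they keep no sequencing depth, so the counting error behind them is unknown. Genes encoded in mitochondrial DNA took 64.7% and 61.1% of all TPM in wild-type hearts, against 68.6% and 62.6% in heterozygous hearts. Each library was also divided by a median-of-ratios factor, 1.08 and 1.27 for wild-type hearts and 0.821 and 0.91 for heterozygous hearts, and these divided values are called scaled TPM. Scaling lifts every heterozygous value relative to the wild-type values. Levels of the 5 genes and of Ctcf are given before and after it. Most other genes are given on 1 scale only, and a positive difference after scaling can be negative with TPM as deposited. With TPM as deposited, the median log2 difference of all tested genes (heterozygous minus wild-type) was −0.35, against −0.01 after scaling. It was −0.31 when genes of mitochondrial DNA were removed and TPM rescaled instead. Genes with a mean of at least 1 TPM were tested with limma, 10036 in all. All 5 genes passed this minimum.

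Lcat was at 1.79 and 2.66 TPM in wild-type and at 3.95 and 4.96 TPM in heterozygous hearts. The groups did not overlap, and the lower heterozygous heart exceeded the higher wild-type heart 1.49-fold before scaling. On the scaled values the means were 1.88 ± 0.315 and 5.13 ± 0.45 (SD, n = 2 each), a ratio of 2.74, against 2.0 with TPM as deposited. The wild-type hearts differed 1.49-fold between themselves in TPM, as much as the gap between the groups.

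Pla2g4e was at 2.72 and 3.02 TPM in wild-type and at 5.17 and 4.90 TPM in heterozygous hearts. Both groups were tight and lay far apart: replicates differed 1.11-fold between wild-type hearts and by a ratio of 0.948 between heterozygous hearts, and the gap between the groups was 1.62-fold. The scaled means were 2.45 ± 0.092 and 5.84 ± 0.648 (SD, n = 2 each), a ratio of 2.39, against 1.75 as deposited.

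Ush1c had the highest level of the 5 genes, at 4.44 and 3.6 TPM in wild-type and 6.35 and 9.23 TPM in heterozygous hearts. The heterozygous hearts were 1.45-fold apart and the gap between the groups was 1.43-fold, so the gap between the groups was no wider than the spread within the heterozygous pair. The scaled means were 3.47 ± 0.892 and 8.94 ± 1.70 (SD, n = 2 each), with a ratio of 2.58 after scaling and 1.94 before it.

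Abcb9 was at 1.66 and 2.16 TPM in wild-type and at 2.25 and 3.22 TPM in heterozygous hearts. Before scaling the groups only just cleared each other, since heterozygous heart 1 was 1.04 times wild-type heart 2 and replicates differed 1.30-fold and 1.43-fold. On the scaled values the gap was 1.61-fold, and the means were 1.62 ± 0.121 and 3.14 ± 0.563 (SD, n = 2 each), a ratio of 1.94 against 1.43 as deposited.

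Phf24 was at 2.13 and 2.60 TPM in wild-type and at 2.7 and 2.54 TPM in heterozygous hearts. With TPM as deposited it therefore did not meet the condition by which the genes were chosen, because heterozygous heart 2 lay below wild-type heart 2. After scaling the values were 1.97 and 2.05 in wild-type and 3.29 and 2.79 in heterozygous hearts, with a gap of 1.36-fold between the groups. Its ratio of means was 1.11 before and 1.51 after scaling, the smallest of the 5 genes on both scales.

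**Figure D1:**
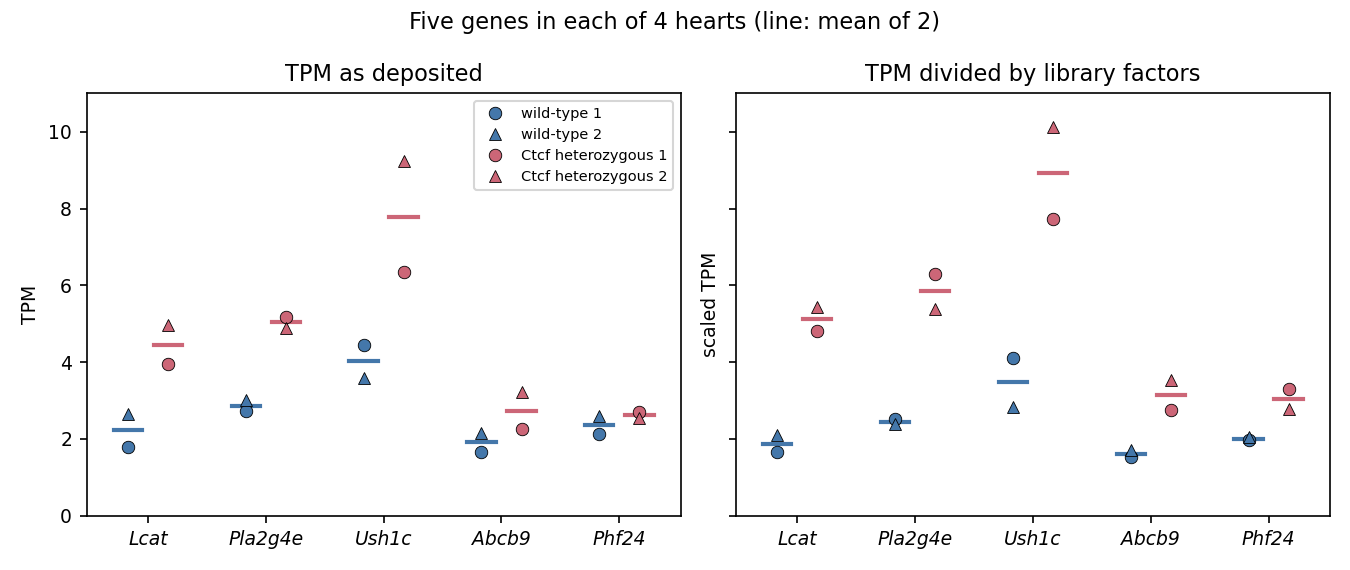
Level of each of the 5 genes in each heart (x axis, genes; y axis, TPM as deposited on the left and scaled TPM on the right), with wild-type hearts in blue, Ctcf heterozygous hearts in red, circles for replicate 1, triangles for replicate 2 and lines for the mean of 2. With TPM as deposited the groups are separate in 4 of the 5 genes and overlap in Phf24, and after scaling they are separate in all 5.

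On the scale used for testing, log2(scaled TPM + 1), the heterozygous minus wild-type difference was a log2 value of 1.16 for Ush1c, 1.09 for Lcat, 0.99 for Pla2g4e, 0.65 for Abcb9 and 0.42 for Phf24, with standard errors from limma of 0.20, 0.15, 0.14, 0.15 and 0.14. Differences on this scale understate the ratio of genes with few TPM. The differences of Ush1c, Lcat and Pla2g4e lay within 0.20 of each other, the standard error of Ush1c, and those of Abcb9 and Phf24 were smaller. With TPM as deposited the same differences were 0.79, 0.77, 0.64, 0.35 and 0.11. Lcat and Pla2g4e had the most alike profiles over the 4 hearts, 0.17 apart as the root mean square of their centred log2 values, and Phf24 and Ush1c the least alike, 0.44 apart.

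How far these 5 genes stand from the rest is a matter of description, since they were picked for it. After scaling, both heterozygous hearts exceeded both wild-type hearts in 23.0% of the 10036 tested genes, and lay below them in 24.0%, whereas with TPM as deposited only 2.32% lay wholly above. At an adjusted p under 0.05 (limma, Benjamini-Hochberg over all tested genes), 0 genes, or 0.0%, were higher and 3 genes, or 0.0299%, were lower in heterozygous hearts. At an unadjusted p under 0.05 the limma fit gave 624 genes higher (6.22%) and 610 lower (6.08%). For a single gene, an exact permutation test (two-sided) of 2 hearts against 2 cannot give a p below 0.333.

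The 5 genes were low but not at the bottom of the table. Their mean TPM ran from 2.32 for Abcb9 to 5.91 for Ush1c, and among tested genes 27.9% lay below Abcb9, 30.3% below Phf24, 40.5% below Lcat, 46.5% below Pla2g4e and 59.4% below Ush1c. Ush1c was therefore above the median of tested genes. In the same range of mean TPM there were 3014 tested protein-coding genes, of which 57 were higher in both heterozygous than in both wild-type hearts as deposited, and 721 after scaling. Ordered by the ratio of the lower heterozygous to the higher wild-type TPM, Pla2g4e came 1st of the 3014, Lcat 4th, Ush1c 6th, Abcb9 43rd and Phf24 68th.

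The genes nearest to a ratio of 1 show where the edge of the selection lies. Just inside it were Helq, a DNA helicase (3.84 and 4.09 TPM in wild-type, 4.46 and 4.13 TPM in heterozygous hearts), and Aim2, a sensor of cytosolic DNA (2.45 and 2.47, 3.52 and 2.50 TPM). Just outside were Zfp532 (4.48 and 4.56, 4.53 and 4.73 TPM) and Tmem62 (3.92 and 3.98, 3.93 and 5.0 TPM). Abcb9 lay close to this edge and Phf24 beyond it, whereas Lcat, Pla2g4e and Ush1c lay far inside.

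**Figure D2:**
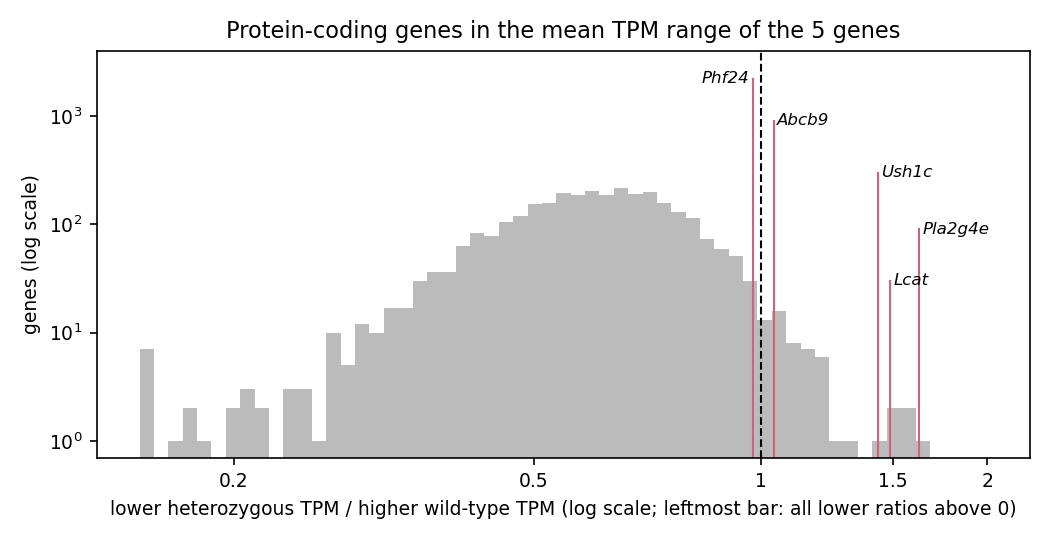
Number of tested protein-coding genes (y axis, log scale) by the ratio of the lower heterozygous to the higher wild-type TPM as deposited (x axis, log scale) among the 3014 genes in the same range of mean TPM; the leftmost bar holds all lower ratios above 0, 1 gene with a ratio of 0 is left out, the dashed line marks a ratio of 1, and red lines mark the 5 genes. Pla2g4e (1.62), Lcat (1.49) and Ush1c (1.43) stand in the right tail, Abcb9 (1.04) is just right of the dashed line and Phf24 (0.977) just left of it.

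The tissue behind the 5 genes was checked with marker lists, since Lcat is best known from liver, Ush1c from sensory and intestinal epithelium and Phf24 from neurons. The 6 cardiomyocyte markers summed to between 18370 and 22420 scaled TPM in every heart. The 5 hepatocyte markers were each under 1 TPM in every heart, their sum was at most 0.253 scaled TPM, and Fgb, Cyp3a11 and Serpina1a were listed at 0 in all hearts. The 5 neuron markers were likewise under 1 TPM, with sums of 0.277 and 0.103 in wild-type and 0.195 and 0.352 in heterozygous hearts. Of the gut and kidney epithelium markers Umod was listed at 0, Vil1 stayed at or below 0.15 TPM, and nearly the whole sum (217.5 and 222.2, 184.9 and 190.4 scaled TPM) came from Lgals4. Hair cells of the inner ear were not covered by a list, and Myo7a and Cdh23, which they use, were above 1 TPM in these hearts.

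Among the other lists, those of endothelial cells, fibroblasts, smooth muscle, macrophages, Schwann cells and mesothelium had sums that overlapped between the genotypes or were lower in heterozygous hearts, and lymphocyte and adipocyte markers were under 1 TPM throughout. Sums that stood wholly higher in heterozygous hearts were those of lymphocyte markers (0.896 and 0.805, 1.08 and 0.989 scaled TPM) and skeletal muscle fibre markers (2.42 and 2.67, 3.41 and 3.67), the latter with Myh1 and Myh4 listed at 0. The 4 atrial markers all had positive differences with overlapping sums (810.5 and 2340, 1910 and 3256 scaled TPM), as did the 5 erythroid markers, which stood at 2104 scaled TPM in heterozygous heart 2 against 934.4, 981 and 961.5 in the others. No marker gene passed the adjusted limma test, and the part of these lists in the levels of the 5 genes was not tested.

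In the HDL list around Lcat differences went in both directions. Of 26 listed genes 12 were tested, 8 with a positive and 4 with a negative difference, their median was 0.04 against −0.01 for all tested genes, 3 were wholly higher and 3 wholly lower (23.0% and 24.0% of all tested genes), and none passed the adjusted test. Apoa1, which encodes the cofactor of the Lcat enzyme, was below 0.1 scaled TPM in every heart. Lpl, the lipoprotein lipase of capillary walls, had the largest difference, with 89.45 and 108.7 scaled TPM in wild-type and 52.7 and 66.0 in heterozygous hearts, a log2 difference of −0.73 (limma, adjusted p = 0.328). Its endothelial anchor Gpihbp1 was at 67.25 and 68.9 against 51.2 and 57.8 scaled TPM (limma, adjusted p = 0.476). Pla2g15, the lysosomal phospholipase A2 closest in sequence to Lcat, was at 2.15 and 2.43 against 1.77 and 1.45 scaled TPM, a log2 difference of −0.34 (limma, adjusted p = 0.408). Apod, a lipocalin carried on HDL, was at 1.77 and 2.59 against 2.27 and 4.29 scaled TPM (limma, adjusted p = 0.526), and the cholesterol exporter Abca1 and HDL receptor Scarb1 differed by 0.07 and 0.00.

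Around Pla2g4e, 13 of 27 phospholipase A2 and N-acylethanolamine genes were tested, 4 with a positive and 9 with a negative difference and a median of −0.16, with 2 wholly higher, 5 wholly lower (23.0% and 24.0% of all tested genes) and none called. The nearest relatives of Pla2g4e were sparse in these hearts: Pla2g4c, Pla2g4d and Pla2g4f were at or below 0.11 scaled TPM, and Pla2g4a was at 0.379 and 0.379 in wild-type and 0.353 and 0.439 in heterozygous hearts. Pla2g4b, a paralogue on the same chromosome, was at 5.84 and 5.08 scaled TPM against 7.97 and 6.56, a log2 difference of 0.35 (limma, adjusted p = 0.416). Its TPM as deposited overlapped between the genotypes, at 6.32 and 6.44 against 6.54 and 5.97. Pla2g4e and Pla2g4b were thus the only genes of the Pla2g4 family listed here that reached a mean of 1 TPM. Of the other enzymes on the list, the phosphodiesterase Gdpd3 was at 1.23 and 2.48 against 2.96 and 2.93 scaled TPM, a log2 difference of 0.50 (limma, adjusted p = 0.41). With TPM as deposited Gdpd3 overlapped between the genotypes, at 1.33 and 3.14 against 2.43 and 2.67 TPM. Napepld, the main hydrolase of N-acylphosphatidylethanolamines, stayed between 0.252 and 0.39 scaled TPM and the hydrolase Faah at or below 0.171. Pla2g5, a secreted phospholipase A2, was at 2.01 and 1.71 against 0.963 and 1.48 scaled TPM, a difference of −0.37 (limma, adjusted p = 0.415).

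Of the 5 lists, that of harmonin partners was the only one whose tested genes were all on the positive side after scaling. Of 19 listed Usher and microvillus genes only 4 reached the minimum, all 4 had positive differences (48.4% of all tested genes), their median was 0.25 and 3 were wholly higher after scaling (23.0% of all tested genes), while none passed the adjusted test. Myo7a, the myosin that harmonin binds, was at 4.19 and 4.79 scaled TPM in wild-type and 6.72 and 7.40 in heterozygous hearts, a log2 difference of 0.56 (limma, unadjusted p = 0.0069, adjusted p = 0.322). With TPM as deposited Myo7a overlapped between groups, at 4.54 and 6.07 against 5.52 and 6.74 TPM. Whrn, which encodes the related PDZ scaffold whirlin, was at 5.43 and 4.73 against 6.52 and 6.17 scaled TPM (log2 difference 0.28, limma, adjusted p = 0.462). The tip link cadherin Cdh23 was at 2.27 and 2.51 against 3.62 and 2.38 scaled TPM (limma, adjusted p = 0.619), its partner Pcdh15 stayed at or below 0.176, and Cdhr2, Cdhr5, Myo7b, Clrn1 and Clrn2 were listed at 0. Triobp differed by 0.10 (limma, adjusted p = 0.772). With TPM as deposited Whrn was lower in both heterozygous hearts, at 5.88 and 5.99 against 5.35 and 5.62 TPM. So was Triobp, at 2.59 and 3.12 against 2.07 and 2.57 TPM, and Cdh23 overlapped, at 2.46 and 3.18 against 2.97 and 2.17 TPM.

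In the list of ABCB transporters and peptide loading genes around Abcb9 differences were also in both directions. Of 21 listed genes 18 were tested, 8 with a positive and 10 with a negative difference and a median of −0.04, with 1 wholly higher, 3 wholly lower (23.0% and 24.0% of all tested genes) and none called. Tap1, a subunit of the transporter that carries peptides into the endoplasmic reticulum and a close relative of Abcb9, was at 4.07 and 3.20 scaled TPM in wild-type and 3.97 and 6.40 in heterozygous hearts (log2 difference 0.40, limma, adjusted p = 0.48), and its partner Tap2 differed by −0.05. The mitochondrial transporter Abcb8 differed by 0.01 on the log2 scale. Of the lysosomal genes on the list, the protease Ctsd was at 79.25 and 93.9 against 48.7 and 61.5 scaled TPM (log2 difference −0.65, limma, adjusted p = 0.34), the membrane protein Lamp2 was at 12.4 and 13.4 against 10.9 and 10.4 (−0.25, limma, adjusted p = 0.503), and the protease Ctsb and membrane protein Lamp1 overlapped between the genotypes (limma, adjusted p = 0.519 and 0.673).

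Of 19 inhibitory G protein and GABA-B genes listed for Phf24, 10 were tested, 8 with a positive and 2 with a negative difference and a median of 0.07, with 2 wholly higher, 1 wholly lower (23.0% and 24.0% of all tested genes) and none called. Gabbr2, an obligate subunit of the GABA-B receptor, was listed at 0 in 3 of the 4 hearts, while Gabbr1 was at 12.3 and 11.9 scaled TPM in wild-type and 14.4 and 11.1 in heterozygous hearts. Inhibitory alpha subunits, to which GINIP binds, were present, with Gnai2 at 25.3 and 24.3 against 22.6 and 24.1 scaled TPM and Gnao1 at 2.58 and 2.86 against 3.24 and 3.75 (log2 difference 0.27, limma, adjusted p = 0.457). Gpsm3, a regulator of inhibitory alpha subunits, was at 1.83 and 1.41 against 2.11 and 3.58 scaled TPM (log2 difference 0.53, limma, unadjusted p = 0.0403, adjusted p = 0.389). Before scaling Gpsm3 and Gnao1 both overlapped between the genotypes. Gpsm3 was at 1.98 and 1.79 against 1.73 and 3.26 TPM, and Gnao1 at 2.79 and 3.62 against 2.66 and 3.41 TPM.

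Genes that lie beside the 5 genes were compared next, as CTCF sites partition neighbouring genes. Within 250 kb of either end of the 5 genes the annotation places 109 other genes, of which 47 were tested. Their median difference was −0.04, 21 were positive and 26 negative, and 10 (21.3%) lay wholly above and 10 (21.3%) wholly below the wild-type hearts after scaling, shares near the 23.0% and 24.0% of all tested genes. None passed the adjusted test, the smallest adjusted p by limma being 0.279. At an unadjusted p under 0.05 by limma there were 2 higher and 6 lower of the 47, against 6.22% and 6.08% of all tested genes. Near Lcat 6 of 16 tested genes lay wholly above and 2 wholly below. These numbers were 1 and 2 of 9 near Pla2g4e and 0 and 2 of 4 near Ush1c. They were 0 and 1 of 9 near Abcb9 and 3 and 3 of 9 near Phf24.

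**Figure D3:**
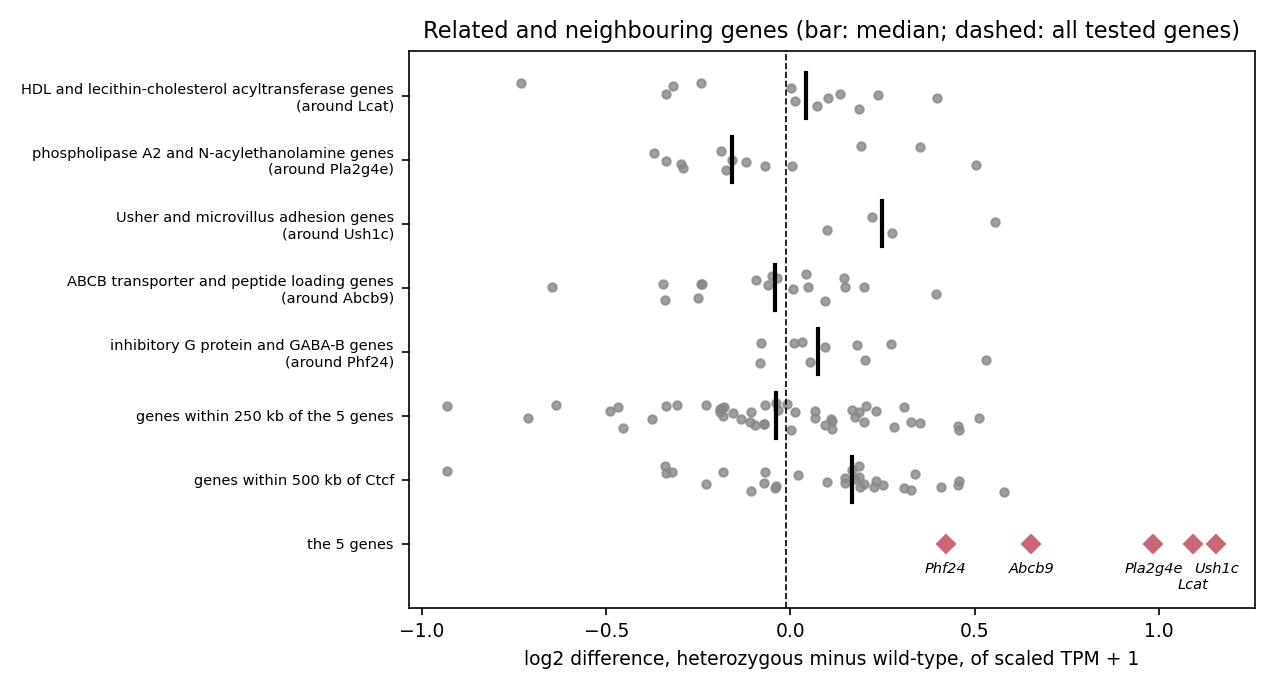
Log2 difference, heterozygous minus wild-type, of log2(scaled TPM + 1) (x axis) for the tested genes of each list and neighbourhood (grey points, 1 per gene; black bar, median; dashed line, median of all tested genes at −0.01) and for the 5 genes (red diamonds, chosen for high values). Of the medians drawn, that of the 4 Usher genes (0.25) and that of genes around Ctcf (0.17) lie farthest to the right, and that of the phospholipase A2 list (−0.16) farthest to the left. The 16 tested neighbours of Lcat are in both neighbourhoods.

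Slc12a4, a potassium-chloride cotransporter that ends 207 bases before the GENCODE start of Lcat, was at 19.0 and 18.4 scaled TPM in wild-type and 29.0 and 19.3 in heterozygous hearts (log2 difference 0.33, limma, adjusted p = 0.542). Psmb10, an immunoproteasome subunit on the other side of Lcat, was at 21.4 and 18.2 against 21.9 and 23.3 (log2 difference 0.19, limma, adjusted p = 0.655). With TPM as deposited Psmb10 was lower in both heterozygous hearts (23.2 and 23.04 against 17.98 and 21.21). Slc12a4 overlapped between the genotypes (20.55 and 23.34 against 23.83 and 17.59). Ratios of neighbours taken within 1 library do not depend on scaling, and the Lcat to Slc12a4 ratio was 0.0871 and 0.114 in wild-type against 0.166 and 0.282 in heterozygous hearts. The Lcat to Psmb10 ratio was 0.0772 and 0.116 against 0.220 and 0.234. Lcat was higher relative to both neighbours in each heterozygous heart. Lcat was chosen for its higher heterozygous TPM, so a higher ratio to a neighbour not chosen in this way was largely set beforehand. Neighbours that follow the median shift of all tested genes with TPM as deposited (log2 −0.35) also raise the ratio. The same holds for the ratios of Pla2g4e, Ush1c and Abcb9 below. Such ratios are a description and do not check the scaling. The other genes near Lcat with an unadjusted p under 0.05 were the protease gene Ctrl (log2 difference 0.46), the telomere protein gene Acd (0.45) and the polarity gene Pard6a (−0.93), with adjusted p by limma of 0.378, 0.377 and 0.366.

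Relative to their neighbours Pla2g4e and Ush1c were also higher in each heterozygous heart. The ratio of Pla2g4e to Ehd4, an endosomal protein gene 11.8 kb away, was 0.273 and 0.187 in wild-type and 0.652 and 0.562 in heterozygous hearts. The ratio to Vps39, on the other side, was 0.4595 and 0.554 against 1.16 and 1.11. Ehd4 and Vps39 themselves differed by −0.16 and 0.07 on the log2 scale (limma, adjusted p = 0.735 and 0.879). Further from Pla2g4e, Mga, a MAX-binding transcription factor gene, and the gene model Gm28042 had unadjusted p under 0.05 with differences of −0.47 and −0.49 (limma, adjusted p = 0.34 and 0.39). Gm28042 overlaps Pla2g4b on the same strand, so that reads of both can be split between them and the values of each are uncertain.

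For Ush1c the ratio to Abcc8, the sulfonylurea receptor gene 15.3 kb away, was 0.537 and 0.388 in wild-type and 1.11 and 0.927 in heterozygous hearts. The ratio to Sergef, 204.7 kb away on the other side, was 2.96 and 4.0 against 6.615 and 14.4, with Sergef itself near 1 TPM. Kcnj11, which encodes the channel partner of the sulfonylurea receptor, was at 5.92 and 7.03 against 4.48 and 4.41 scaled TPM (log2 difference −0.45, limma, adjusted p = 0.342), and Abcc8 differed by 0.20 (limma, adjusted p = 0.698). Ush1c thus lay beside genes with differences in both directions.

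Abcb9 stood higher relative to Vps37b (1.145 and 1.60 in wild-type, 2.71 and 3.32 in heterozygous hearts) and to Ogfod2 (0.360 and 0.398, 0.886 and 0.763). Its gap to wild-type was wider in these ratios than in TPM as deposited, where both neighbours were lower in both heterozygous hearts. Vps37b, an ESCRT-I subunit gene, and Ogfod2 differed by −0.11 and −0.13 (limma, adjusted p = 0.764 and 0.772 for the log2 differences).

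Phf24 was the exception among these ratios. Relative to Ccl21a, a lymphoid chemokine gene 142.7 kb away, it was at 0.221 and 0.195 in wild-type and 0.678 and 0.394 in heterozygous hearts, with Ccl21a itself at a log2 difference of −0.64 (limma, adjusted p = 0.34). Relative to Dnajb5, a heat shock protein 40 family gene 5.06 kb away, it was at 0.208 and 0.188 against 0.179 and 0.230, so the genotypes overlapped. Dnajb5 was at 9.48 and 10.9 scaled TPM in wild-type and 18.4 and 12.1 in heterozygous hearts (log2 difference 0.51, limma, adjusted p = 0.407). Vcp, an AAA ATPase gene 35.2 kb from Phf24, had the smallest p of all neighbours, at 21.9 and 21.8 against 12.2 and 13.7 scaled TPM (log2 difference −0.71, limma, unadjusted p = 0.00271, adjusted p = 0.279).

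Ctcf was measured at 6.66 and 7.59 TPM in wild-type and 6.14 and 5.20 TPM in heterozygous hearts, and at 6.15 and 5.99 against 7.48 and 5.71 after scaling (means 6.07 ± 0.116 and 6.60 ± 1.25, SD, n = 2 each). Its log2 difference was 0.09 with a standard error of 0.16 (limma, adjusted p = 0.834), and its direction turned with scaling. A point substitution leaves the transcript in place, so this level does not check the genotype labels. Within 500 kb of Ctcf, 31 genes other than Lcat were tested, 20 with a positive (48.4% of all tested genes) and 11 with a negative difference and a median of 0.17. With TPM as deposited only 4 of the 31 had a positive difference, but the median of all tested genes was then −0.35. Relative to all tested genes the median of the 31 was 0.13 as deposited and 0.18 after scaling. The 16 tested neighbours of Lcat are among the 31. After scaling 14 of the 31 (45.2%) lay wholly above and 3 wholly below the wild-type hearts, against 23.0% and 24.0% of all tested genes, whereas 1 lay wholly above with TPM as deposited, against 2.32%. None passed the adjusted test (smallest adjusted p by limma 0.334). Their differences ran from −0.93 for Pard6a to 0.58 for Elmo3, an engulfment and motility gene, and none reached the 1.09 of Lcat. Slc9a5, a sodium-proton exchanger gene, also had an unadjusted p under 0.05, with a difference of 0.41 (limma, adjusted p = 0.368).

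**Figure D4:**
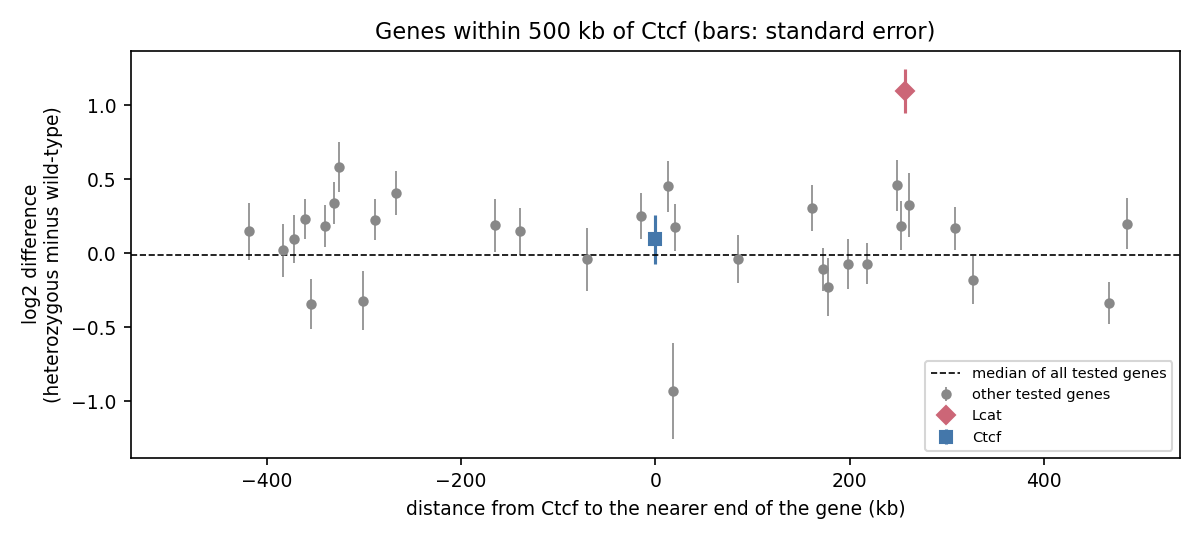
Log2 difference, heterozygous minus wild-type, of log2(scaled TPM + 1) (y axis; bars, standard error from limma) of the 31 tested genes within 500 kb of Ctcf, of Ctcf and of Lcat, by distance from Ctcf to the nearer end of each gene (x axis, kb); the dashed line is the median of all tested genes. Lcat, 256.6 kb from Ctcf, has the highest point at 1.09 and Pard6a the lowest at −0.93, and 20 of the other 31 genes lie above 0, against 4 with TPM as deposited.

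Some bases of these genes are shared with other gene models, which bears on how reads could be assigned. The longest transcripts of Lcat and Phf24 (1342 and 6538 bases) matched no other gene at 90% identity over 100 bases. Pla2g4e shared 155 bases (3.46%) with Gm13997, Ush1c 128 bases (4.17%) with Gm9860 and Abcb9 169 bases (4.62%) with Gm34086, the last 2 of these on the opposite strand. Gm13997 and Gm34086 were listed at 0 in every heart, and Gm9860 was at most at 0.04 TPM. Lcat is overlapped by the antisense model Gm16156, at 0.51 and 0.55 TPM in wild-type and 0.55 and 0 TPM in heterozygous hearts. Whether counting used strand is not given in the sources used here, so reads of Lcat and Gm16156 may not be told apart, while Gm16156 itself overlapped between the genotypes.

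For each of the 5 genes the 3 tested protein-coding genes with the most alike profile over the 4 hearts were named, by the root mean square difference of centred log2 values. Those of Lcat were Dtnb (0.08), which encodes beta-dystrobrevin, Plekha7 (0.10), an adherens junction protein gene, and Comtd1 (0.12). Comtd1 was also among those of Pla2g4e (0.08), with Dnase1l2 (0.05) and Gramd1a (0.09). Those of Ush1c were less alike, namely Gm3164 (0.14), Trmt1 (0.15), a tRNA methyltransferase gene, and Rnaseh2a (0.15), a subunit of ribonuclease H2. Those of Abcb9 were Ntmt1 (0.01), Smox (0.03), the spermine oxidase gene, and Nppb (0.04), the natriuretic peptide gene whose transcript rises with wall stress, at 109.4 and 120.5 scaled TPM in wild-type and 163.3 and 211.5 in heterozygous hearts. The Nppb values overlapped between the genotypes with TPM as deposited. Those of Phf24 were Atxn7l3, Pex13 and Smc1a, a cohesin subunit gene, each 0.02 away from it in profile. With 4 hearts a profile of this kind holds little more than the genotype difference and the spread of each pair, so likeness is a description of these libraries.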

How the data were processed

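PolyA RNA of 4 mouse hearts, 2 wild-type and 2 Ctcf heterozygous (8 weeks), was analysed. The authors deposited TPM per gene. The submitters' processing notes name Trim Galore, STAR, RSEM and DESeq2 and the build mm10; the methods state that RSEM quantified genes. Count tables were not used here. TPM were divided by median-of-ratios factors, a pseudocount of 1 was added and log2 taken. Genes with a mean of at least 1 TPM were fitted with limma 3.58.1 (lmFit, eBayes with trend, 4.76 prior degrees of freedom) in R 4.3.3, two-sided, with Benjamini-Hochberg adjustment. The fit was tested on simulated data. Of the 55401 genes, 55141 matched GENCODE M21. Shared transcript sequence was searched with BLAST+ 2.17.0. Named genes were the 5 genes, Ctcf, relatives and partners, the largest differences of each list, nearest neighbours and neighbours with an unadjusted p under 0.05. The values of 1 listed gene are not reported here. The 5 genes and the lists were chosen with earlier results of these data known. Alternatives were the scaling, pseudocount, filter, a replicate block and leaving out each library.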

Additional observations from a re-analysis of the deposited data

How the results depend on the processing

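All 5 genes had a positive difference, relative to the median of all tested genes, under the main setting and each of the 12 alternatives tried, a direction that their selection largely fixes and that is no sign of stability. Their median relative to all genes was 0.996 on the log2 scale, 1.15 with mt- genes removed and TPM rescaled, 1.23 with a pseudocount of 0.1, and 0.90 to 0.98 when each library was left out in turn. Genes called higher numbered 0, against 2 with TPM as deposited, 2 with mt- genes removed, 1 with a minimum mean of 0.5 TPM and 0 to 11 when a library was left out (11 without heterozygous replicate 1, 3 without heterozygous replicate 2, 1 without wild-type replicate 1). Genes called lower numbered 3, against 11 with TPM as deposited, 12 with mt- genes removed, 0 without a filter on low values and 1 to 13 when a library was left out (13 and 11 without wild-type replicates 1 and 2, 1 without heterozygous replicate 2). With the replicate block 3 genes were called higher and 8 lower, but same-numbered libraries share only a number. Across all tested genes, the deviations of same-numbered libraries from their group means had a correlation of 0.101. The median of the inhibitory G protein list, 0.08 relative to all genes, turned to −0.0215 without heterozygous replicate 1 and ranged to 0.20. Without a filter the medians of the Usher and phospholipase A2 lists went from 0.26 and −0.15 to 0.07 and −0.0042 relative to all genes. With each library left out, the HDL list ranged from −0.14 to 0.21, the ABCB list from −0.18 to 0.08 and the neighbours of the 5 genes from −0.06 to 0.05, on both sides of 0. The median of the genes around Ctcf, 0.18 relative to all genes, was 0.13 with TPM as deposited and 0.08 without a filter. It was 0.09 to 0.23 with each library left out, the lowest of these without wild-type replicate 2. Fits without a library assume that the lone remaining one varies like the other group. The cause of these changes was not tested. Depth is unknown, so the precision of values of a few TPM rests on 2 hearts per genotype.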
